A study of Mus musculus with 92 samples.

Results

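Small nucleolar RNA host genes were examined in single mouse bone marrow progenitors: Snhg1, Snhg3, Snhg5, Snhg6, Snhg8, Snhg12 and Gas5, which are 7 of 23956 genes measured. Values were found for all 7. They were chosen by their gene names after Snhg3 was seen to have the largest fall between the sorted gates of these same cells. The gate difference is therefore given below as a description, without a test, and supports nothing further.

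The cells came from hindlimb bone marrow of Gfi1-R412X/R412X mice on the C57BL/6 strain. The allele puts a premature stop in GFI1, a transcriptional repressor of the granulocyte lineage. Marrow was enriched on CD117 (Kit) beads and sorted into the gates GMP (45 cells; the abbreviation commonly stands for granulocyte-monocyte progenitor) and CD11b+ GMP-P (47 cells), and each sample is 1 cell, captured on a Fluidigm C1 chip. Both gates carry the mutation, 0 wild type cells were among the samples, and neither a treatment nor an age is given in the labels. The authors' groups file gives each cell 1 of 9 state names, which are used here as written.

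Each gate carries 1 date code and the labels name no animals, so a difference of gate cannot be told apart from one of animal, date or capture. Cells of a gate are not replicates, no p-value was computed, and each SD below is the spread between cells. Read depth is unknown because TPM, a relative unit with the same total in each cell, keeps none. The number of genes above 0 stands in for it, with a median of 5611 (2775 to 6612) in GMP cells and 4143 (1993 to 5743) in CD11b+ GMP-P cells. The median share of TPM in granule genes was 6.31% for GMP cells and 26.4% for CD11b+ GMP-P cells. Itgam, which encodes CD11b, was above 0 in 17 of 45 GMP cells and 38 of 47 CD11b+ GMP-P cells. Fcgr3, a marker of the GMP gate, was above 0 in 43 and 44 cells, and Ly6a, which encodes the Sca-1 antigen that this gate usually lacks, in 42 and 46. Cd34 was above 0 in 39 GMP and 16 CD11b+ GMP-P cells, and Kit in 34 and 23. Gfi1 transcript was above 0 in 34 GMP and 36 CD11b+ GMP-P cells, which checks no genotype, since the allele changes a codon.

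A small nucleolar RNA host gene carries small nucleolar RNAs (snoRNAs) in its introns. Splicing frees the intron, nucleases trim it, and the snoRNA joins proteins to guide the chemical modification or the cutting of ribosomal RNA: box C/D snoRNAs guide ribose methylation and box H/ACA snoRNAs guide pseudouridine formation, with a few of either class acting in cleavage of the precursor. The joined exons of hosts such as Gas5 code for no known functional protein, and many are degraded by nonsense-mediated decay. Many hosts start transcription at a pyrimidine tract like that of ribosomal protein genes (a terminal oligopyrimidine, or TOP, start), and Gas5 is named for its accumulation in growth-arrested cells. The values below are of the exon transcripts, counted from libraries primed on polyadenylated RNA, and not of the snoRNAs.

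Snhg3 carries a pair of H/ACA snoRNAs, Snora73a and Snora73b, which act in cleavage of the ribosomal RNA precursor. Their sequences are shown because they are the cargo of the gene with the largest gate difference. They are the GENCODE M21 transcripts on GRCm38, minus strand, at chr4:132352775-132352979 and chr4:132352322-132352526, inside Snhg3 (chr4:132348014-132353686), 5′ to 3′, with the H box and the ACA trinucleotide in capitals.
Snora73a: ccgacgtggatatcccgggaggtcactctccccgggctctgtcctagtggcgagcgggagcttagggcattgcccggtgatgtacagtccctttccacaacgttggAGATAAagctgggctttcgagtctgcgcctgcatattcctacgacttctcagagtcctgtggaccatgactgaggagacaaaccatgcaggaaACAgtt
Snora73b: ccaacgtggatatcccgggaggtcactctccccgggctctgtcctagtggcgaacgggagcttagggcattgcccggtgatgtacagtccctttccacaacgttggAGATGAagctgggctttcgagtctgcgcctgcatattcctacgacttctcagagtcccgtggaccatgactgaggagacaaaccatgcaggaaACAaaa
Both are 205 bases long and differ at 7 positions (96.6% identity). Snora73b is intronic in all 5 annotated Snhg3 transcripts, and Snora73a is intronic in 4 and overlaps an exon of 1. The sources used here do not give whether the authors' gene models held that exon. Gas5 carries box C/D snoRNAs, of which Snord47 (GRCm38, plus strand, chr1:161038082-161038158, 77 bases) is shown for contrast, with boxes C and D in capitals.
Snord47: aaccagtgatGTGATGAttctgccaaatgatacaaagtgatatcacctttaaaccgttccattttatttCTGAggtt

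The start sites of the members were read from RefSeq promoters on GRCm38.p6, where 6 of the 7 members matched; Snhg6 is missing from that table. Gas5 has 2 annotated starts. Each line holds 30 bases before and 30 bases from the annotated start, 5′ to 3′ on the gene's strand, and capitals mark the longest pyrimidine run of at least 6 bases that begins within 10 bases of the start.
Snhg1: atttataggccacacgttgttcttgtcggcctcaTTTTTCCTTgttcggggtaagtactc
Snhg3: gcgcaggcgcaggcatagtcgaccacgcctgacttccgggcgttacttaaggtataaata
Snhg5: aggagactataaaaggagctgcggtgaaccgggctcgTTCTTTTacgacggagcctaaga
Snhg8: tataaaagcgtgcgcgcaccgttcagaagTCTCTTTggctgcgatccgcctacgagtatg
Snhg12: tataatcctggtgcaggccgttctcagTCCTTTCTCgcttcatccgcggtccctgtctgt
Gas5, first start: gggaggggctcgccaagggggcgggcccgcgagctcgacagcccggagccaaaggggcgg
Gas5, second start: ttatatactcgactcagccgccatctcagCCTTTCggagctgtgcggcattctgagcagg
These lie within the 300-base promoters at chr19:8723237-8723536 (plus strand), chr4:132353637-132353936 (minus), chr9:88522848-88523147 (minus), chr3:123508287-123508586 (minus), chr4:132308428-132308727 (plus), chr1:161034351-161034650 (plus) and chr1:161034916-161035215 (plus). Such a run stood in 5 of these 7 windows: 9 bases in Snhg1 and Snhg12, 7 in Snhg5 and Snhg8, and 6 at the second start of Gas5. One was held by 23.1% of all 32851 promoters of RefSeq's table. Snhg3 held none near its annotated start, and whether transcription begins there was not tested.

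The whole Snhg3 promoter, 250 bases before and 50 from the start, is printed because Snhg3 stands apart by its gate difference. Capitals mark matches to CCGGAAG (here on the opposite strand, as CTTCCGG) and to TATAAA.
Snhg3 promoter: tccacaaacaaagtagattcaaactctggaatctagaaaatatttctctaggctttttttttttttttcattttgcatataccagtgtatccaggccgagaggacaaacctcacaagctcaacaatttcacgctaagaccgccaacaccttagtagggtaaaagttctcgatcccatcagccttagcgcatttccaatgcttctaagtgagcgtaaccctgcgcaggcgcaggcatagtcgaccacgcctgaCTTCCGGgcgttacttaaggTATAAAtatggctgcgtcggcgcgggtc
Searched on both strands, CCGGAAG was found in 8.86% of all promoters of the table and, of the members' 7 promoters, in that of Snhg3. TATAAA was in 13.6% of all promoters and in those of Snhg1, Snhg3, Snhg5 and Snhg8. In Snhg1 the match was on the opposite strand, as TTTATA, and began at -29 from the annotated start. On the gene's strand TATAAA began at -23 in Snhg5 and at -30 in Snhg8. In Snhg3 it began at base 23, after the annotated start. CACGTG was in 7.15% of all promoters and in 0 of the 7. These are matches of letters, not binding sites.

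All 7 host genes had a lower mean in CD11b+ GMP-P than in GMP. Of the 2 hosts with only H/ACA cargo, Snhg3 stood at 0, 239 and 1793 TPM (lowest, median and highest cell) in GMP and at 0, 0 and 343 TPM in CD11b+ GMP-P. The medians were far apart, yet the ranges overlapped: 4 GMP cells were at 0 and 3 CD11b+ GMP-P cells were above 100 TPM, against 32 GMP cells. Its mean was 6.90 ± 2.91 (SD, n = 45 cells) on the log2(TPM + 1) scale in GMP and 1.16 ± 2.26 (n = 47) in CD11b+ GMP-P, a difference of -5.74. Snhg3 was above 0 in 41 of 45 GMP cells (91.1%), with an exact Clopper-Pearson 95% interval from 78.8 to 97.5%. In CD11b+ GMP-P it was above 0 in 13 of 47 cells (27.7%, 15.6 to 42.6). Intervals cover counting error only. Where it was above 0, its median was 263 TPM in GMP cells and 11.5 TPM in CD11b+ GMP-P cells, so the cells with the transcript differed in its level too.

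Snhg8, the host of Snora24, was the lower-expressed of this pair, with 0, 12.7 and 598 TPM in GMP and 0, 0 and 427 TPM in CD11b+ GMP-P. Its mean was 3.77 ± 2.69 in GMP and 1.88 ± 2.72 in CD11b+ GMP-P on the log2(TPM + 1) scale, a difference of -1.89, which was the smallest of the 7 and less than either SD. It was above 0 in 38 of 45 and 22 of 47 cells.

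Gas5, the host of several C/D snoRNAs, was the steadiest member in GMP. All 45 GMP cells held it (exact interval from 92.1 to 100%), at 8.6, 165 and 799 TPM. Of the 47 CD11b+ GMP-P cells 34 held it (72.3%, 57.4 to 84.4), at 0, 9.77 and 687 TPM. Its mean was 7.28 ± 1.36 in GMP and 3.66 ± 3.19 in CD11b+ GMP-P, a difference of -3.61 on the log2(TPM + 1) scale. The spread between cells was thus wider in CD11b+ GMP-P, where the top of the range still reached GMP levels.

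Snhg1, the host of Snord22 and other C/D snoRNAs, stood at 0, 86.7 and 693 TPM in GMP and 0, 0 and 455 TPM in CD11b+ GMP-P. Its mean was 5.51 ± 2.85 in GMP and 2.52 ± 3.33 in CD11b+ GMP-P, a difference of -2.99 that lies between the SDs of the gates. It was above 0 in 39 of 45 and 19 of 47 cells. The CD11b+ GMP-P cells that held it had a median of 94.9 TPM, close to the 117 TPM of the GMP cells that held it, so for Snhg1 the gates were apart in the share of cells above 0 more than in the level within them.

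Snhg5, which carries the C/D snoRNA Snord50, spanned 0, 94.4 and 808 TPM in GMP and 0, 4.63 and 1291 TPM in CD11b+ GMP-P. The highest cell of all for Snhg5 was in CD11b+ GMP-P. The mean of Snhg5 was still lower there, at 3.73 ± 3.52 against 5.89 ± 3.11 in GMP (-2.16, less than either SD). Snhg5 was above 0 in 40 of 45 and 32 of 47 cells. Snhg6, the host of Snord87, spanned 0, 57.7 and 346 TPM in GMP and 0, 1.88 and 191 TPM in CD11b+ GMP-P. Its mean was 5.11 ± 2.65 against 2.54 ± 2.81 (-2.57, less than either SD), with 39 of 45 and 25 of 47 cells above 0.

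Snhg12 carries snoRNAs of both classes. It spanned 0, 11 and 563 TPM in GMP and 0, 0 and 140.3 TPM in CD11b+ GMP-P. The mean was 3.59 ± 3.19 over GMP cells and 1.31 ± 2.18 over CD11b+ GMP-P cells. The difference of -2.28 lies between the SDs of the gates. Snhg12 was above 0 in 29 of 45 and 15 of 47 cells, the smallest share of the 7 in GMP.

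**Figure D1:**
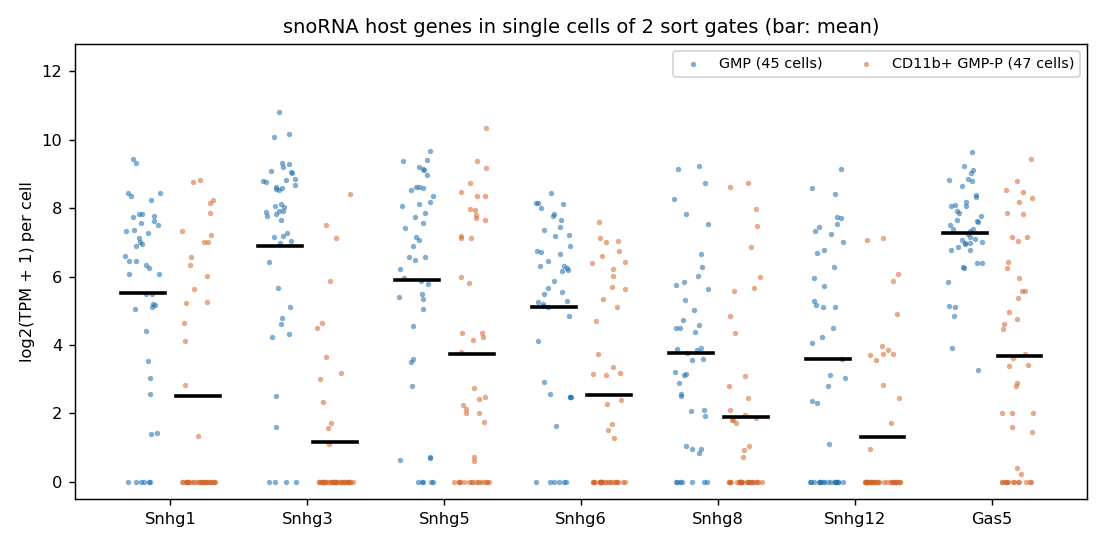
Level of each host gene in each cell on the log2(TPM + 1) scale, by gate, with GMP (45 cells) and CD11b+ GMP-P (47 cells) side by side; each point is 1 cell and the bar is the mean. Snhg3 has most GMP cells high and 34 of 47 CD11b+ GMP-P cells at 0, and the ranges of the gates overlap for all 7 genes.

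Many genes were lower in CD11b+ GMP-P, so the members are read against the 7803 genes detected (above 0) in 25% or more of the cells of either gate. Of these 39% were at least 2-fold lower, against 7 of 7 members. At least 8-fold lower by the mean of log2(TPM + 1), which counts cells at 0, were 2.81% of all and 2 members, Snhg3 and Gas5. From mean TPM the differences were smaller. Gas5 had a mean of 218 TPM in GMP and 82 TPM in CD11b+ GMP-P (-1.40 on the log2 scale). Snhg3 had 318 and 17.1 TPM (-4.14). The median difference was -0.74 over all genes and -2.57 over the members, and 17.6% of all genes and all 7 members lay at least 2-fold below the median of all. Among the 5027 genes detected in 50% or more of the cells of either gate, 53.7% were at least 2-fold lower and the median was -1.1. The contrast is the one behind the choice of the members, so nothing is read from these counts. No gene had a lower difference than Snhg3, by which the members were chosen; next were Cd34 at -5.32, Slc25a4, a mitochondrial ADP/ATP carrier, at -5.00, and Hspe1, a mitochondrial chaperonin subunit, at -4.93. On the log2(TPM + 1) scale 1.1% of all genes lay below Gas5, 2.83% below Snhg1, 5.93% below Snhg6, 9.12% below Snhg12, 10.6% below Snhg5 and 14.7% below Snhg8. From mean TPM, 1428 of the 7803 genes lay below Gas5 and 41 below Snhg3, and from medians over cells 630 and 5.

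The gates held cells of different detection and different states, which overlap: Myelo-2 and Myelo-4 cells had the fewest genes detected, so the effects of detection and state cannot be told apart here. In 22 pairs of a GMP and a CD11b+ GMP-P cell matched on genes detected (medians 5020 and 5103), the difference of Snhg3 was -4.52, of Snhg1 -2.20, of Gas5 -1.87, of Snhg12 -1.69, of Snhg8 -1.16 and of Snhg6 -0.42, and that of Snhg5 turned to 0.57. Among all genes 14.4% were then at least 2-fold lower and 12% higher, so that lower genes made 54.6% of those past 2-fold, against 93.5% over all cells. The states still differed, as 12 of the 22 GMP cells were Mono and 13 of the 22 CD11b+ GMP-P cells Gran-2. Without the Myelo states Snhg3 was at -5.01 and the others between -1.82 (Gas5) and -0.85 (Snhg5), with 17.8% of all genes at least 2-fold lower.

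**Figure D2:**
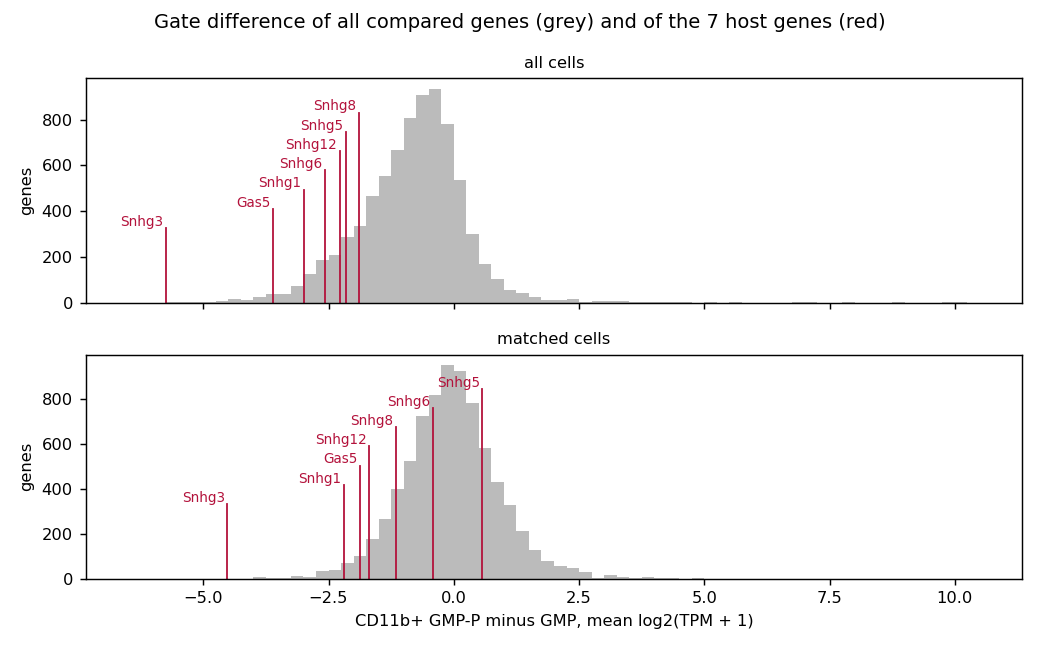
Number of genes (y axis) by difference of mean log2(TPM + 1), CD11b+ GMP-P minus GMP (x axis), with the 7 host genes marked in red, over all cells (upper panel, 7803 genes) and over the 22 matched pairs (lower panel, 7781 genes). Over all cells Snhg3 at -5.74 lies at the far left and Snhg8 at -1.89 nearest to the median of -0.74, and in matched cells Snhg5 lies at 0.57.

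**Figure D3:**
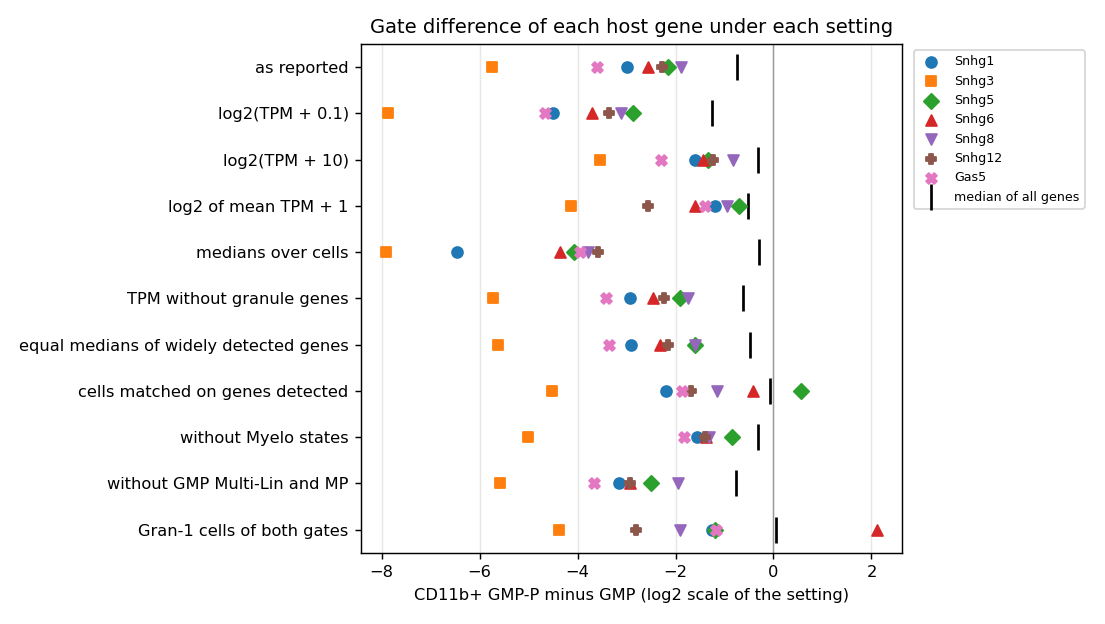
Gate difference of each host gene (CD11b+ GMP-P minus GMP, log2 scale) under each way of processing the values or choosing the cells. Snhg3 stays between -7.91 and -3.54, while Snhg5 in cells matched on genes detected (0.57) and Snhg6 in Gran-1 cells (2.12) are above 0.

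Within GMP, Snhg3 was high in most states. The 24 Mono cells stood at 0, 319 and 1139 TPM, with 23 above 0 (mean 7.72 ± 2.18 on the log2 scale). MP cells held 23.7, 236, 269, 372 and 642 TPM, Multi-Lin cells 4.66, 85.6, 131, 446 and 1793 TPM, and cMoP cells 126, 145 and 277 TPM. By mean, Mono (7.72) was followed by MP (7.69), cMoP (7.43) and Multi-Lin (7.12), which lay within 1 SD of each other, and then by Gran-1 (4.81 ± 3.70). The 6 Gran-1 cells held 0, 2.04, 17.6, 33.3, 460.4 and 538 TPM and so overlapped the Mono cells, with 4 of them at 33.3 TPM or less. The 2 Gran-2 cells of this gate were both at 0.

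In CD11b+ GMP-P the median of Snhg3 was 0 in every state of more than 1 cell. Gran-2 cells stood at 0, 0 and 181 TPM, with 9 of 20 above 0, and the 15 Myelo-2 cells were all at 0, which allows a share of up to 20% of cells with a value above 0 (21.8% by the exact interval). That limit covers counting error only and not transcripts missed in a cell. Gran-1 cells held 0, 0, 0 and 2.29 TPM, Myelo-1 cells 0, 0 and 21.8 TPM, and Myelo-4 cells 0, 0 and 1.14 TPM. The highest cell of the gate, at 343 TPM, was its single Multi-Lin cell, which also held 1291 TPM of Snhg5, 311 TPM of Gas5 and 83.3 TPM of Snhg6, with Snhg1 and Snhg12 at 0. The single Mono cell of this gate was at 0 for Snhg3, at 445 TPM for Gas5 and at 282 TPM for Snhg1.

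Gas5 was above 0 in every cell of each GMP state. Mono cells stood at 8.6, 173 and 799 TPM, Gran-1 cells held 27.8 to 518 TPM, MP cells 56, 124, 126, 265 and 445 TPM, Multi-Lin cells 33.9, 77.4, 114, 197 and 287 TPM, and cMoP cells 133, 323 and 449.9 TPM. By mean log2(TPM + 1) the order was cMoP (8.07 ± 0.91), Mono (7.39 ± 1.38), Gran-1 (7.34 ± 1.40), MP (7.33 ± 1.14), Multi-Lin (6.81 ± 1.19) and Gran-2 (5.62 ± 2.43; 2 cells, at 13.9 and 161 TPM), with neighbours within 1 SD. In CD11b+ GMP-P the Gran-1 cells held 9.42, 75.6, 141 and 228 TPM, Myelo-1 cells 3.02, 11.4 and 233 TPM, and the 3 Myelo-4 cells were at 0.

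Snhg1 varied widely between cells in Mono and Multi-Lin of GMP and in Gran-1 and Gran-2 of CD11b+ GMP-P. In GMP, Mono cells stood at 0, 66.5 and 693 TPM. MP cells of GMP held 1.62, 74.9, 79.1, 95.3 and 123 TPM, and Multi-Lin cells 0, 0, 33.4, 189 and 637 TPM. In CD11b+ GMP-P, Gran-1 cells held 0, 6.09, 128 and 438 TPM, Gran-2 cells stood at 0, 30.1 and 455 TPM, and Myelo-1 cells held 0, 0 and 161 TPM. The 2 Gran-2 cells of GMP held 160.5 and 198 TPM, and the 3 Myelo-4 cells were at 0. The 1 Myelo-2 cell above 0 held 302 TPM, so even there the range overlapped that of Gran-2.

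Snhg5 was highest by mean in Mono within GMP (6.52 ± 2.93; 0, 155 and 808 TPM), followed within 1 SD by cMoP (6.34; 39.8, 94.4 and 134 TPM), Gran-1 (6.14) and MP (5.33), and then Multi-Lin (3.99 ± 4.01; 0, 0, 32.5, 44.1 and 669 TPM). Lowest by mean in GMP were its 2 Gran-2 cells (3.05), at 0.63 and 41.2 TPM. In CD11b+ GMP-P, Gran-2 cells stood at 0, 58.8 and 658 TPM (mean 5.02 ± 3.33). Gran-1 cells of that gate held 2.34, 3.75, 220 and 247 TPM (4.93 ± 3.40), so these 2 states did not lie apart beyond their spread. Within GMP, Snhg8 stood at 0, 12.5 and 563 TPM in Mono (mean 3.84 ± 2.69). Multi-Lin cells of GMP held 0, 0, 56.9, 99.4 and 308 TPM (4.15 ± 3.89), so these states overlapped. Snhg8 was at 0, 0.94, 0.95, 11, 21.7 and 52.6 TPM in GMP Gran-1 and 0, 0, 1.05 and 2.61 TPM in CD11b+ GMP-P Gran-1. The 2 Gran-2 cells of GMP held 76.8 and 598 TPM of Snhg8, the latter its highest value of all. Gran-2 cells of CD11b+ GMP-P stood at 0, 2.7 and 427 TPM.

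The 2 largest states of CD11b+ GMP-P were set against each other, which shares gate, date code and capture. All 7 members were lower in Myelo-2 (15 cells) than in Gran-2 (20 cells), each by at least 2-fold, as were 51.2% of the 7334 genes compared. Gas5 stood at 0, 43.5 and 687 TPM in Gran-2 and at 0, 0 and 21 TPM in Myelo-2, a difference of -3.88. Snhg1 differed by -3.25, with 13 of 20 Gran-2 cells and 1 of 15 Myelo-2 cells above 0. The others were Snhg6 at -2.67, Snhg5 at -2.62, Snhg12 at -2.02, Snhg3 at -1.94 and Snhg8 at -1.48. The members' median was -2.62 and that of all genes -1.04, both on the log2(TPM + 1) scale. Snhg5 was above 0 in 9 of 15 Myelo-2 cells, at a median of 3.01 TPM against 58.8 TPM in Gran-2. Genes detected had a median of 2936 in Myelo-2 and 4595 in Gran-2, and granule genes took 56.3% and 24% of TPM; their part in the result was not tested.

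**Figure D4:**
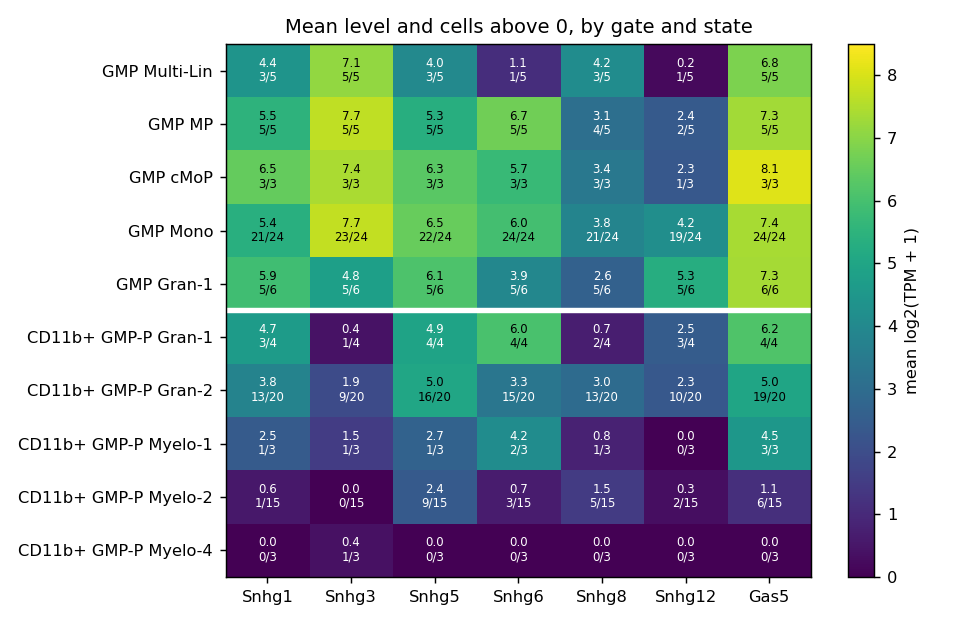
Mean log2(TPM + 1) of each host gene in each state of each gate, for states of at least 3 cells; numbers in each field are the mean and the cells above 0 of all. Means in Myelo-4 are 0 for all members but Snhg3 (0.37), and among GMP states Snhg6 (1.10) and Snhg12 (0.22) are lowest in Multi-Lin.

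Gran-1 and Multi-Lin were compared with Mono inside GMP. In Gran-1 (6 cells) against Mono (24 cells), 3 members were at least 2-fold lower, Snhg3 (-2.91), Snhg6 (-2.04) and Snhg8 (-1.21), and 1 was higher, Snhg12 (1.10), against 21% lower and 13.8% higher of all 8601 genes. Gas5 (-0.05), Snhg5 (-0.38) and Snhg1 (0.54) were within 2-fold. Snhg12 held 0, 17.7, 61.1, 103, 152 and 207 TPM in these Gran-1 cells and 0, 24.5 and 563 TPM in Mono, so the groups overlapped.

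In Multi-Lin (5 cells) against Mono, 3 members were at least 2-fold lower, Snhg6 (-4.87), Snhg12 (-3.98) and Snhg5 (-2.53), against 44.1% of all 8315 genes. Snhg6 held 0, 0, 0, 0 and 44.4 TPM in Multi-Lin and 2.11, 76.1 and 284 TPM in Mono, where 24 of 24 cells were above 0. Snhg12 held 0, 0, 0, 0 and 1.14 TPM in Multi-Lin. Snhg1 (-0.97), Snhg3 (-0.60), Gas5 (-0.58) and Snhg8 (0.32) were within 2-fold, where the median of all genes was -0.81. The median number of genes detected was 3634 in Multi-Lin and 5624 in Mono.

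Gran-1 held cells of both gates, 6 of GMP and 4 of CD11b+ GMP-P, and was compared between them; this comparison was added after the values were seen. Here 6 members were lower by 2-fold or more in the CD11b+ GMP-P cells, against 22% of all 9201 genes, and Snhg6 was higher, as were 23.6% of all. Snhg3 was at -4.38, and Snhg12, Snhg8, Snhg1, Snhg5 and Gas5 were at -2.81, -1.90, -1.25, -1.20 and -1.18. Snhg6 held 0, 4.59, 4.97, 6.55, 144 and 346 TPM in the GMP cells and 12.4, 84.5, 129 and 129.8 TPM in the CD11b+ GMP-P cells (2.12). Medians of genes detected were 5733 and 5264.

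Counted per cell, a median of 6 of the 7 hosts (3 to 7) were above 0 in GMP and 3 (0 to 7) in CD11b+ GMP-P. All 7 were above 0 in 20 GMP cells and 3 CD11b+ GMP-P cells, and none in 0 and 6 cells, of which 4 were Myelo-2 and 2 Myelo-4. The median was 7 in Mono of GMP, and 5 in Gran-2, 2 in Myelo-2 and 0 in Myelo-4 of CD11b+ GMP-P. Their summed TPM (lowest, median and highest cell) was 233, 1031 and 2508 in GMP and 0, 166 and 2031 in CD11b+ GMP-P. Snhg3 was the highest host in 16 of 45 GMP cells but in 2 of the 41 CD11b+ GMP-P cells with any, where Snhg5 was highest in 15.

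**Figure D5:**
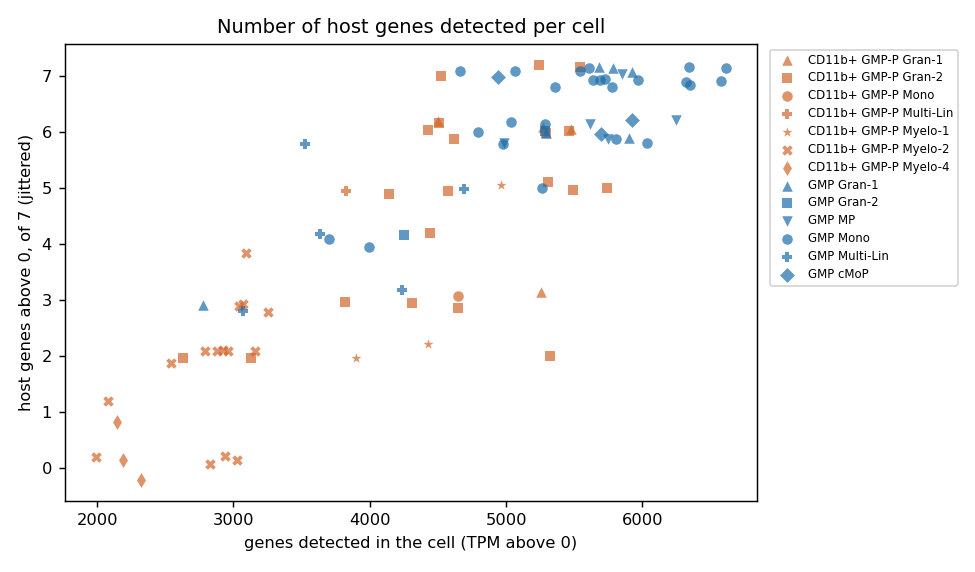
Number of the 7 host genes above 0 in each cell (y axis) against the number of genes detected in it (x axis), by gate. The 15 Myelo-2 cells, which lie among the cells with fewest genes detected, hold 0 to 4 hosts, and GMP cells hold 3 to 7.

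Within a gate the members varied only loosely together. Over the 21 pairs, Pearson's r of log2(TPM + 1) across cells had a median of 0.13 in GMP (-0.11 to 0.39) and 0.36 in CD11b+ GMP-P (0.04 to 0.55, the highest for Gas5 with Snhg12). In the largest state of each gate it was 0.13 (Mono) and 0.28 (Gran-2). These cells share a library and differ in detection: with the number of genes detected, r ran from 0.13 (Snhg8) to 0.62 (Snhg6) in GMP and from 0.25 (Snhg8) to 0.70 (Gas5) in CD11b+ GMP-P. Among 2937 genes detected in 50% or more of both gates' cells, those most like Snhg3 by the mean r of the gates were Gid8 and Cct8 (0.50), Zmat2 (0.49), Hspd1 and Gtpbp4 (0.48), Rpl22l1 (0.47), Dnaja1 and Cd93 (0.46). The median of all was 0.13, and Gas5 stood at 0.36, Snhg6 at 0.25 and Snhg5 at 0.23.

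Other genes of the pathway were counted by the same 2-fold rule, which 39% of all genes passed as lower and 2.72% as higher. Among genes detected in 50% or more of the cells of either gate these shares were 53.7% and 3.3%. The snoRNP core proteins, which bind the snoRNA and hold the modifying enzyme, were at least 2-fold lower for 8 of 8 compared (median -3.63), among them Nop58 (-4.18), Nhp2 (-4.03) and Nop56 (-3.99). Of 11 assembly factors 8 were lower (median -1.50), among them Ruvbl2 (-3.77), Ruvbl1 (-3.13) and Nolc1 (-2.97). Of 48 protein-coding snoRNA hosts 41 were lower (median -2.24), with Ppan at -4.41, Nop56 again at -3.99 and Dkc1, the pseudouridine synthase, at -3.91. The 7 compared genes of the list of other noncoding hosts were all lower by the mean of log2(TPM + 1) (median -1.58). They were 1500012F01Rik (Zfas1 in RefSeq) -4.47, Snhg4 -2.46, Snhg9 -1.68, Mir17hg -1.58, Snhg7 -1.46, 0610009B22Rik -1.20 and Snhg10 -1.16. Of these Mir17hg hosts microRNAs, and whether 0610009B22Rik is a noncoding host was not checked. By mean TPM, Snhg7 was higher in CD11b+ GMP-P (26 TPM) than in GMP (13.1 TPM). No gene of these 4 lists was at least 2-fold higher. In cells matched on genes detected these medians were -1.86, -0.95, -0.94 and -1.21, where that of all genes was -0.07.

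Lists of TOP genes, growth control and other functions were counted in the same way, against the same 39% lower and 2.72% higher of all genes. Among genes detected in 50% or more of the cells of either gate 53.7% were lower. Genes of cytosolic ribosomal proteins were lower by 2-fold or more for 74 of 75 (median -2.09; Rpl3 -3.37, Rps2 -3.28, Rps21 -3.19), and of 20 other TOP genes 16 (median -2.28; Hnrnpa1 -4.44, Eef1g -4.28, Eef1d -3.80). Myc, a factor that drives ribosome building, was at -4.31, Rrn3, of RNA polymerase I initiation, at -2.88 and Eif4ebp1, a translation repressor, at -2.62, with 6 of 12 of their list lower (median -1.0). For nonsense-mediated decay factors the count was 8 of 20, near the share of all genes (median -0.74, that of all genes; Eif4a3 -3.47, Pnrc2 -2.47, Magoh -2.16). Among 12 housekeeping genes 9 were lower (median -1.26; Sdha -2.49, Tfrc -2.27, Hprt -1.72), and in matched cells their median was 0.11. Of 5 other long noncoding RNAs compared 1 was lower (median -0.29; Rpph1 -1.11, Kcnq1ot1 -0.38, Neat1 -0.29). Granule genes were at least 2-fold higher for 14 and lower for 7 of 21 (median 3.61; S100a9 10.17, Chil3 9.97, Camp 8.97). In matched cells the medians were -0.95 for ribosomal proteins, -1.04 for other TOP genes, -0.48 for growth control, -0.36 for decay factors, -0.07 for other long noncoding RNAs and 1.34 for granule genes. Without the Myelo states, where the median of all genes was -0.31, they were -0.55, -0.87, -0.69, -0.35, -0.25 and 0.95, and that of housekeeping genes was -0.30.

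The direct neighbours of the members, by RefSeq on GRCm38, were mostly nearer to the median of all genes. Rcc1, next to Snhg3, was at -1.69 and Phactr4 at -0.40, against -5.74 for Snhg3. Their GMP means were 2.83 and 0.85 on the log2(TPM + 1) scale, so neither could fall by as much as Snhg3. Beside Snhg1 (-2.99), Wdr74 was at -2.78 and Slc3a2 at -2.19. Syncrip, next to Snhg5, was at -1.87, and Trnau1ap, next to Snhg12, at -1.04. Snhg6 overlaps Mcmdc2 (-0.38, from a low GMP mean of 1.58) and lies by Sgk3 (-0.55, from 3.11). Gas5 overlaps Zbtb37, which was above 0 in 2 GMP cells and 0 CD11b+ GMP-P cells. Reads of overlapping genes can be shared, since the sources used here do not give whether counting used strand.

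The snoRNAs themselves were nearly unmeasured. Of 105 rows named Snora or Snord, 73 were at 0 in every cell and 4 were above 0 in at least 10 cells. Among the members' cargo, Snord22 of Snhg1 was above 0 in 7 GMP and 2 CD11b+ GMP-P cells (highest 44 TPM), Snora44 of Snhg12 in 3 GMP cells and Snora16a of Snhg12 in 1. Snord47, Snord87, Snora24, Snora61 and Snord99 were at 0 in all 92 cells, in libraries that capture polyadenylated RNA. Snora73a and Snora73b, the cargo of Snhg3, were not among the genes measured under these names.

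Markers of other cell types were summed in each gate beside these differences. The monocyte list (8 genes, all in the table) had a median of 624 TPM (0 to 5258) in GMP and 1.42 (0 to 1298) in CD11b+ GMP-P. The erythroid list was at a median of 0 in both (highest 1044 and 11.3 TPM), with 5 and 7 of 9 genes at 0 in every cell, Alas2 and Epor among them. The megakaryocyte list was at a median of 0 in both (highest 51.6 and 105 TPM), with Pf4 and Vwf at 0. Of the B cell list 5 and 4 of 6 were at 0, Pax5 included, with medians of 0.64 and 0 TPM (highest 1039 and 350.3). Of the T and NK cell list Cd3e, Cd3g and Ncr1 were at 0, and its medians of 3409 and 2721 TPM (130.4 to 11282 and 0 to 11763) equalled those of its member Nkg7 alone. The basophil and mast cell list stood at 24.8 TPM (0 to 11256) and 0 (0 to 1743), and the eosinophil list at 0 in both (highest 424 and 61.1), with Epx and Ccr3 at 0. The part of the monocyte genes in the members' differences was not tested.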

How the data were processed

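Single mouse bone marrow cells were measured by RNA-seq on a Fluidigm C1 chip (SMARTer cDNA, Nextera XT libraries, 150 bp paired-end reads in libraries of 96 cells, per the labels). Bowtie2 and RSEM with the mm9 build are named in the submitters' processing notes; the sources used here give no versions. The authors deposited log2 values, log2(TPM + 1), for 23956 genes in 92 cells, of which 80.9% were 0, and a file of other values that names the state of each cell; the sources used here do not say how states were assigned. Linear TPM summed to about 1000000 per cell without the Ly6g row.

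The members, gene lists and comparisons were chosen with earlier results of these data known. Means of log2(TPM + 1), with pseudocount 1, were taken over cells by gate and state, and differences are CD11b+ GMP-P minus GMP, or as stated. This scale understates changes of low genes. Where many cells are at 0, its differences can exceed those of mean TPM. Genes detected in 25% or more of either group's cells were compared, with a size rule of 1 (2-fold) on the log2 scale. All cells were used, and doublets were not called. No p-value was computed, since each gate is 1 library. Shares have exact Clopper-Pearson 95% intervals, and a share of 0 is given with an upper limit of 3 cells. Both cover counting error only.

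Named genes were the 7 members, the 3 genes of each list with the largest absolute gate difference and the members' direct neighbours. The 8 genes most like Snhg3 by mean within-gate Pearson correlation were named too. All 7 compared genes of the list of other noncoding hosts were named after their values were seen, as were the genes next lowest to Snhg3. Some genes under these rules are not reported here. The lists were other noncoding and protein-coding snoRNA hosts, snoRNP core proteins, snoRNP assembly factors, nonsense-mediated decay factors, TOP mRNAs, ribosomal proteins, Myc and growth control, housekeeping genes, other long noncoding RNAs and granule genes. Sequences came from RefSeq promoters (GRCm38.p6) and GENCODE M21 (GRCm38); RefSeq on GRCm38 gave neighbours by name only, since the files use mm9. Cells were matched on genes detected, within 250. The difference was checked on the measured values, with cells reassigned at random and a known shift added to some genes, which it returned. The matching was checked on the measured cells, where no cell was used more than once. Both outcomes follow from how the difference and the matching are computed, so these checks cover the code alone and no result. Python 3.11.15, numpy 2.4.6, pandas 2.3.3, scipy 1.17.1 and matplotlib 3.10.9 were used.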

Additional observations from a re-analysis of the deposited data

Results flagged for a closer look

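Among 28 groups of 4 to 10 cells (1 gene in 1 state of 1 gate), 5 held a cell whose gap to the others was large against the range of its group; chance flags about 1 in 20 groups, and groups with most cells at 0 are flagged readily. Snhg1 was at 0 in 1 GMP Gran-1 cell (cell 13), against 5.49 to 8.43 on the log2(TPM + 1) scale in the other 5. Snhg1 was at 1.39 (1.62 TPM) in 1 GMP MP cell (cell 10), against 6.25 to 6.95 in the others. In the GMP Multi-Lin state 1 cell (cell 35) stood apart for both Snhg6, at 5.51 (44.4 TPM), and Snhg12, at 1.10 (1.14 TPM), with the other 4 cells at 0 for each. Snhg3 was at 1.72 (2.29 TPM) in 1 CD11b+ GMP-P Gran-1 cell (cell 85), with the other 3 at 0.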

How the results depend on the processing

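Each gate is 1 library of cells, so no setting tests the gate against other animals or runs, and depth is unknown, so a value of 0 can be a transcript missed. No paired analysis was possible because the cell numbers of the gates are not shared and no test was made; for the same reason no replicate was left out.

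The Snhg3 gate difference was -7.87 with log2(TPM + 0.1), -3.54 with log2(TPM + 10), -4.14 from mean TPM, -7.91 from medians over cells, -4.52 in cells matched on genes detected, -5.01 without the Myelo states and, added after seeing the data, -4.38 in Gran-1 cells alone. The members' median under the same settings was -3.70, -1.43, -1.40, -4.08, -1.69, -1.40 and -1.25. Snhg3 was no longer the lowest of all genes with log2(TPM + 10) (3 genes lower), medians (5), mean TPM (41) and Gran-1 cells alone (32). Direction turned for Snhg5 in matched cells (0.57) and for Snhg6 in Gran-1 cells (2.12); of 70 gate differences of single members 68 stayed below 0 and 25 moved by less than 1.5-fold. The count of members at least 8-fold lower was 2, against 2.81% of all genes. In Myelo-2 against Gran-2, 4 members were at least 2-fold lower with log2(TPM + 10), against 23.8% of all genes. Members at least 2-fold lower between the gates numbered 5 in matched cells (not Snhg5 and Snhg6), against 14.4% of all genes. From mean TPM they numbered 5 (not Snhg5 and Snhg8), against 30.2%. They numbered 6 without the Myelo states (not Snhg5), against 17.8%, and 6 with log2(TPM + 10) (not Snhg8), against 16%. The median of all genes moved from -0.74 to -0.47 after cells were shifted to equal medians, where lower genes made 80.8% of those past 2-fold, and they made 78.1% from mean TPM and 77.6% without the Myelo states. By Spearman the median correlation between members in GMP was 0.06, and 1 of the 8 genes most like Snhg3 (Zmat2) remained among the 8. The cause of these shifts was not tested.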
